A study of Mus musculus with 16 samples.

Results

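The genes described here were 10 ligand and receptor genes of platelet-derived growth factor (PDGF) and fibroblast growth factor (FGF) signalling, taken by symbol from a table of 49568 genes: Pdgfa, Pdgfb, Pdgfc, Pdgfd, Pdgfra, Pdgfrb, Fgf2, Fgf7, Fgfr1 and Fgfr2. All 10 were in the table, and all 10 passed the filter on low counts in every comparison. They were measured by RNA-seq in 16 single flexor tendons of male mice 9 to 11 weeks old, 4 in each of 4 groups. The groups were uninjured tendons of C57BL/6J (C57) mice, a common inbred strain, uninjured tendons of MRL/MpJ (MRL) mice, an inbred strain known for healing several tissues with little scar, and tendons of each strain 7 days post-injury (dpi). The injury was a partial cut (50%) of the deep flexor tendon of 1 digit of the hind paw, and the sheath was collected with the tendon. The study asked how the early response of a tendon that heals with scar differs from that of MRL tendon.

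PDGFs are secreted dimers that act on a pair of receptor tyrosine kinases. PDGF-A and PDGF-C signal mainly through PDGFRα, PDGF-D mainly through PDGFRβ, and PDGF-B through both. PDGF-C and PDGF-D are secreted in a latent form and are activated by proteolysis. FGFs bind heparan sulfate together with FGF receptors, and both families drive the RAS-MAPK and PI3K pathways, proliferation and migration of mesenchymal cells. PDGF and basic FGF (FGF2) have long been tested as growth factors for tendon repair, while FGF7, or keratinocyte growth factor, is made by mesenchymal cells and acts through the epithelial splice form of FGFR2, which gene counts do not separate from the mesenchymal form.

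Before the results, 3 libraries stood apart. The strain labels of the uninjured libraries were checked with genes counted in the injured libraries of only 1 strain, that is with at least 50 counts in each of its 4 injured libraries and at most 2 in any injured library of the other strain. Of 27 such MRL genes, the library labelled C57 uninjured replicate 4 had at least 10 counts in 26, the other uninjured C57 libraries had them in 0, the library labelled MRL uninjured replicate 4 in 0, and the other uninjured MRL libraries in 26 or 27. Of 5 such C57 genes, the library labelled MRL uninjured replicate 4 had 5, and 1 was found in the library labelled C57 uninjured replicate 4. Both libraries therefore went against their strain labels, while the injured libraries, which defined these genes, were not checked. They were kept in the groups of their labels, and values without them are given beside the main results on the members. The library labelled C57 uninjured replicate 4 also carried 63420 CPM (read counts scaled to the library's TMM-adjusted total) in 12 epidermal markers, against at most 468.9 in the other 15 libraries, and the injured C57 library BI-181 carried 64180 CPM in 12 skeletal muscle markers, against 1878 in BI-183 and at most 19.98 elsewhere. Markers of tenocytes summed to between 10190 and 32580 CPM. Library totals were 12552424 to 17832908 counts in 3 groups and 18524170 to 23741648 in injured MRL tendon.

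Fgfr1, Pdgfrb, Pdgfra and Pdgfc held the highest 4 mean levels in both uninjured groups, while Fgfr2 was the seventh or lower in every group. Per kilobase of annotated exon, Fgfr1 had the highest mean in each of the 4 groups, level with Pdgfra in injured C57 tendon, from 20.5 ± 4.63 CPM per kb in injured C57 to 35.8 ± 2.21 in uninjured MRL tendon (SD, n = 4). In uninjured MRL tendon the lowest Fgfr1 library was above the highest Pdgfrb library, the next gene in the order (26.7 ± 4.03 CPM per kb). In the other 3 groups Fgfr1 overlapped the gene after it. Pdgfb had the lowest level per kb in both uninjured groups, at 1.22 ± 0.513 CPM per kb in C57 and 0.341 ± 0.173 in MRL, with no overlap with the gene above it. Without the library labelled C57 uninjured replicate 4, Pdgfb in C57 tendon (1.23 ± 0.628, n = 3) overlapped Fgfr2 (2.18 ± 0.540), the gene then above it. Most of the other neighbours in the order overlapped. Pdgfa was the fifth in both uninjured groups (7.88 ± 3.96 and 9.11 ± 1.79 CPM per kb), and without the library labelled MRL uninjured replicate 4 it was the sixth in MRL tendon (8.69 ± 1.94), overlapping Pdgfd (9.92 ± 1.96). Pdgfa was the third in injured MRL tendon (22.5 ± 4.45), where it overlapped Pdgfc (22.5 ± 4.32) and Pdgfra (19.0 ± 1.29).

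**Figure D1:**
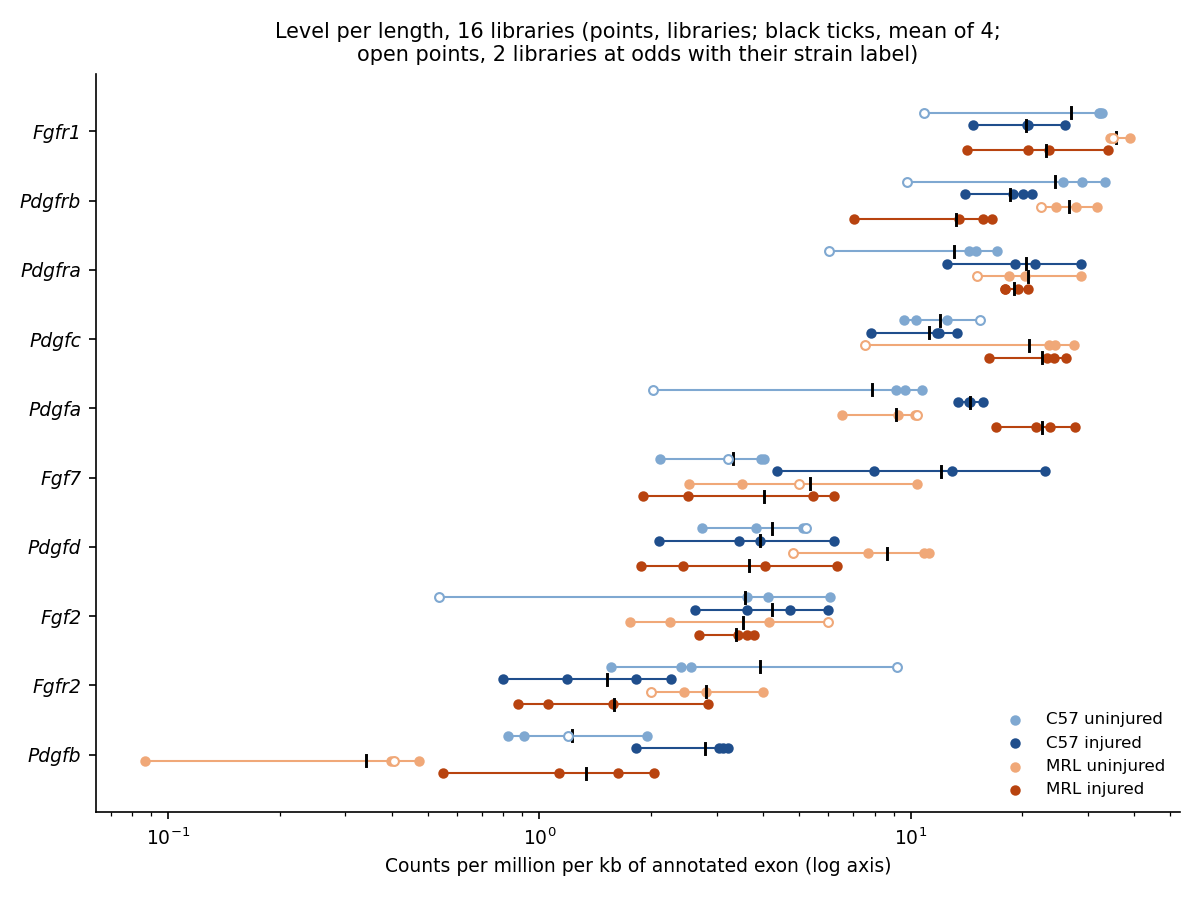
Level of the 10 genes in CPM per kb of annotated exon, on a log axis, in 16 libraries; points are libraries, lines their range, black ticks the mean of 4 and open points the 2 libraries that went against their strain label. Fgfr1, Pdgfrb, Pdgfra and Pdgfc lie to the right in uninjured tendon, and Pdgfb in uninjured MRL tendon has the lowest mean, 0.341 CPM per kb.

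In GRCm38 Pdgfa lies at chr5:138976014-138997370 (minus strand), Pdgfb at chr15:79995874-80014977 (minus), Pdgfc at chr3:81036416-81214040 (plus), Pdgfd at chr9:6168584-6378850 (plus), Pdgfra at chr5:75152292-75198215 (plus), Fgf2 at chr3:37348346-37410108 (plus), Fgf7 at chr2:126034658-126091185 (plus), Fgfr1 at chr8:25513654-25575718 (plus) and Fgfr2 at chr7:130162451-133123350 (minus), with Pdgfrb on chromosome 18. Reads cover all annotated exons, so the counts below join coding and untranslated sequence. Pdgfa shares 813 exon bases (26.1% of its exons) with an antisense gene, 6330403L08Rik, which had at most 143 counts in any library, against up to 1903 for Pdgfa. Fgf2 shares 640 exon bases (9.44%) with Nudt6 on the opposite strand, and Fgfr2 shares 314 (3.04%) with Ctbp2 on the same strand. The strand setting of the counting was not given in the sources used here, so reads from these stretches could not be assigned with certainty.

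Pdgfa, whose product is the main ligand of PDGFRα, rose after injury in MRL tendon. Its normalized level in the 4 uninjured MRL libraries was 32.0, 28.9, 20.4 and 32.4 CPM, and after injury it was 73.9 in BI-270, 86.3 in BI-272, 52.9 in BI-274 and 67.9 CPM in BI-275, the order in which injured MRL libraries are given from here. Every injured library was above every uninjured library. The log2 fold change was 1.31 ± 0.21 (SE), a 2.48-fold rise, with an adjusted p of 0.00466 in edgeR's quasi-likelihood test. It was 1.39 ± 0.23 with an adjusted p of 0.0113 without the library labelled MRL uninjured replicate 4, and it passed in each of the 8 fits that left out 1 library (adjusted p from 0.00404 to 0.0189). A differentially expressed gene (DEG) here had an absolute log2 fold change over 1 at an adjusted p under 0.05, and 7.41% of the 14274 genes tested in MRL tendon met this, or 6.11% without the library labelled MRL uninjured replicate 4. In C57 tendon Pdgfa was at 28.5, 30.1, 33.5 and, in the library labelled replicate 4, 6.32 CPM before injury, and at 7 dpi it was 45.0 in BI-181, 48.8 in BI-183, 44.8 in BI-184 and 41.8 CPM in BI-185. The groups did not overlap, but the spread set by the library labelled replicate 4 was wide and the fold did not pass (log2 fold change 0.84 ± 0.42, adjusted p = 0.384). Without that library the estimate was 0.53 ± 0.16, with an adjusted p of 0.0929.

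Pdgfrb, which encodes PDGFRβ, the receptor of pericytes and many fibroblasts, was the other member that edgeR called in MRL tendon in the fit of its 8 libraries, and it fell. It was at 173.6, 134.8, 152.9 and 123.1 CPM in uninjured MRL tendon and at 74.2, 86.1, 90.9 and 38.5 CPM in injured MRL tendon, with no overlap. The log2 fold change was -1.01 ± 0.25, 2.01-fold lower after injury, with an adjusted p of 0.0275 in edgeR, and -1.07 ± 0.27 (adjusted p = 0.0480) without the library labelled MRL uninjured replicate 4. The call depended on single libraries and on the fit, and with all 16 libraries in 1 fit it was lost (-1.01, adjusted p = 0.0635). It was kept without BI-274 and without the library labelled MRL uninjured replicate 4. It was lost without uninjured replicate 1, 2 or 3, BI-270 or BI-272 (adjusted p from 0.0519 to 0.0820), and without BI-275 because the log2 fold change was then -0.80. In C57 tendon Pdgfrb was at 141.1, 183.4, 158.7 and, in the library labelled replicate 4, 53.5 CPM before injury and at 76.8, 103.2, 116.6 and 110.0 CPM after it. Its log2 fold change of -0.44 ± 0.33 did not pass (adjusted p = 0.566). Without the library labelled C57 uninjured replicate 4 the injured libraries were all lower than the uninjured ones and the log2 fold change was -0.70 ± 0.17, past the adjusted p (0.0420) but not the fold minimum. Mural markers, from cells that carry PDGFRβ, summed to 276.6 to 410.1 CPM in uninjured and 217.5 to 332.0 in injured MRL tendon, 0 of the 9 tested were DEG there, none was at the floor of 3 counts in all libraries of a group, and their part in the fall was not tested. In C57 tendon they summed to 166.0 to 829.3 CPM before and 424.0 to 4209 CPM after injury, highest in BI-181, with 1 of 10 higher and 0 lower by the DEG criteria. In bulk tissue, fewer cells of a type and less RNA per cell cannot be told apart.

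Pdgfra, which encodes PDGFRα, a marker of tissue fibroblasts and a receptor of tendon sheath progenitors, did not pass in either strain. Injured C57 tendon had 125.3, 191.0, 289.1 and 217.0 CPM against 149.9, 171.4, 143.7 and 60.5 CPM in uninjured tendon, the last in the library labelled replicate 4. Uninjured MRL tendon had 203.9, 184.0, 289.0 and 151.1 CPM and injured MRL tendon 180.0, 180.5, 195.1 and 207.0 CPM. The groups of each strain overlapped. The log2 fold change was 0.60 ± 0.34 in C57 (adjusted p = 0.433; 0.37 ± 0.24 without the library labelled replicate 4) and -0.11 ± 0.19 in MRL tendon (adjusted p = 0.746; -0.22 ± 0.18 without its replicate 4).

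The balance of the 2 PDGF receptor genes lay further towards Pdgfra in injured libraries of both strains. The ratio of Pdgfra to Pdgfrb counts, which within a library does not depend on its scaling, was 1.06, 0.935, 0.906 and 1.13 in uninjured C57 tendon and 1.63, 1.85, 2.48 and 1.97 in injured C57 tendon. It was 1.17, 1.36, 1.89 and 1.23 in uninjured MRL tendon and 2.43, 2.10, 2.14 and 5.37 in injured MRL tendon. The injured libraries were above the uninjured libraries of their strain, also the 2 libraries that went against their strain label. This ratio was chosen after the values were seen and is given without a test.

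Pdgfb encodes the ligand of both PDGF receptors, is made by endothelial cells and platelet precursors among others, and had few counts (5 to 218 per library). It was at 1.66, 0.361, 1.97 and 1.69 CPM in uninjured MRL tendon and 4.70, 8.48, 6.79 and 2.28 CPM in injured MRL tendon. In C57 tendon it was at 8.13, 3.43, 3.78 and 4.98 CPM before and 12.96, 13.4, 12.6 and 7.59 CPM after injury. The MRL groups did not overlap, and 3 of the 4 injured C57 libraries were above every uninjured one. The log2 fold change was 1.97 ± 0.66 in MRL (adjusted p = 0.0803) and 1.16 ± 0.41 in C57 tendon (adjusted p = 0.229), so neither passed in edgeR when each strain was fitted alone. With all 16 libraries in 1 fit Pdgfb passed in MRL (1.96, adjusted p = 0.0403) and not in C57 tendon (1.20, adjusted p = 0.235). Without the libraries labelled replicate 4 the estimates were 2.08 ± 0.74 (adjusted p = 0.120) and 1.16 ± 0.42 (adjusted p = 0.149). DESeq2, a second count model, called it in both strains (adjusted p = 0.0106 and 0.0426). That model called 11% of the genes it tested in MRL and 5.49% in C57 tendon. Platelet markers summed to 54.7 to 139.2 CPM in uninjured and 307.9 to 406.6 in injured C57 tendon (1 of 4 tested higher by the DEG criteria) and to 39.6 to 95.3 and 114.3 to 273.4 CPM in MRL tendon (2 of 3 tested higher), with Gp9 at or under the floor in all libraries of both MRL groups and of injured C57 tendon, and Ppbp in those of uninjured MRL tendon. Endothelial markers summed to 19.9 to 140.5 CPM in uninjured and 143.3 to 295.1 in injured C57 tendon, and to 19.8 to 102.9 and 5.46 to 40.0 CPM in MRL tendon, with 0 of 10 DEG in either strain. Macrophage markers were higher after injury in both strains (5 of 10 DEG, 0 lower, in each). The part of any of these cells in the values of Pdgfb was not tested.

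Neither Pdgfc nor Pdgfd, the genes of the latent PDGFs, passed in edgeR in the fits of all 8 libraries of a strain. Pdgfc had a log2 fold change of -0.15 ± 0.22 in C57 (adjusted p = 0.810) and 0.12 ± 0.34 in MRL tendon (adjusted p = 0.850), and both signs turned without the library labelled replicate 4 (0.02 ± 0.20 and -0.15 ± 0.18). Pdgfd was at 35.4, 34.3, 24.2 and, in the library labelled replicate 4, 15.2 CPM in uninjured MRL tendon and at 12.8, 5.94, 19.97 and 7.68 CPM after injury. Without the library labelled replicate 4 the MRL groups did not overlap. The log2 fold change was -1.23 ± 0.41 (adjusted p = 0.0798), or -1.41 ± 0.41 (adjusted p = 0.0685) without that library, and it passed in edgeR only without BI-274 (-1.62, adjusted p = 0.0298) and, with all 8 libraries, in DESeq2 (adjusted p = 0.0285). In C57 tendon Pdgfd was -0.16 ± 0.39 (adjusted p = 0.895), with 95% bounds of -1.04 and 0.72.

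**Figure D2:**
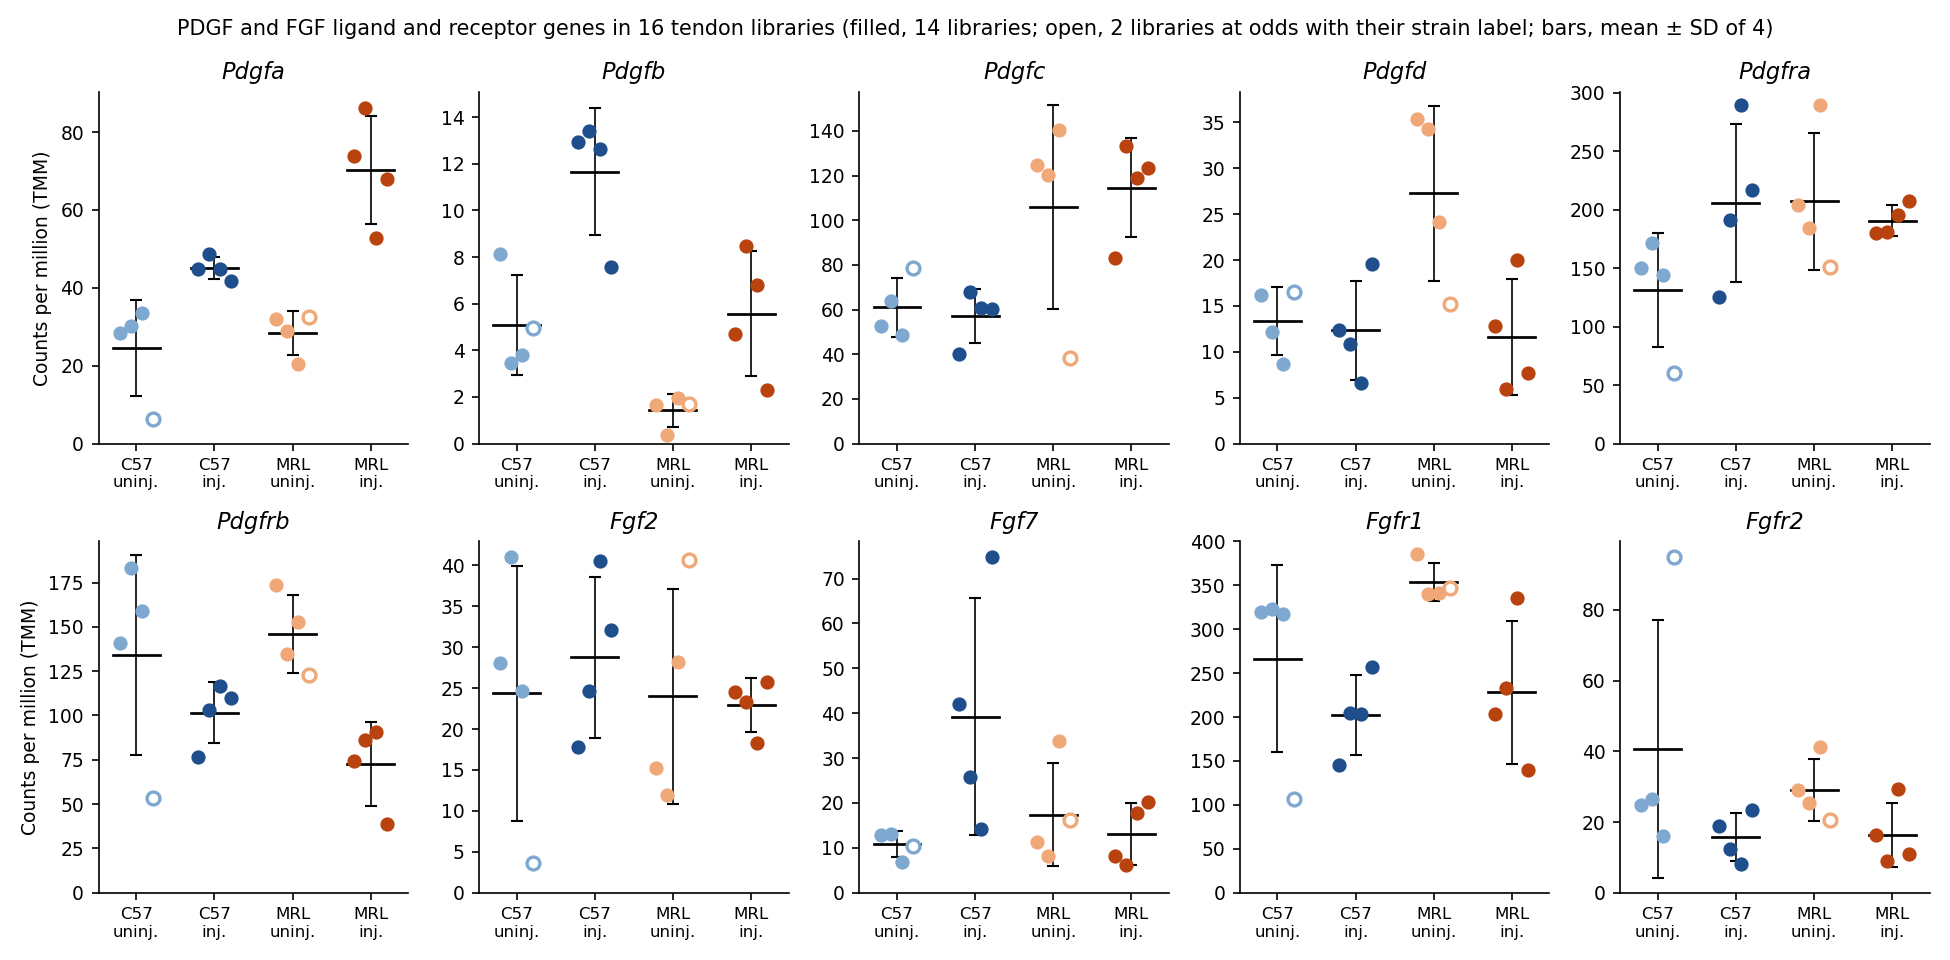
Normalized level (CPM, linear axes from 0) of each gene in the 16 libraries; points are libraries, open points the 2 that went against their strain label, and black lines the mean and SD of 4. The 4 injured MRL libraries lie between 52.9 and 86.3 CPM for Pdgfa, above all uninjured MRL libraries, and the 3 uninjured MRL libraries with filled points lie between 120.3 and 140.2 CPM for Pdgfc, above all C57 libraries.

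The makeup of the 4 PDGF ligand genes, per kb, is a description of the same values. Pdgfa made up 34.4% to 44.8% of it in the 3 uninjured C57 libraries whose strain was not in doubt and 40.3% to 49.2% in injured C57 tendon. In the libraries labelled replicate 4 it made up 8.48% (C57) and 44.9% (MRL). It made up 15.5% to 22.1% in the 3 such uninjured MRL libraries and 35.1% to 52.4% in injured MRL tendon. Pdgfd made up 18.15% to 24.8% of the ligand genes in those 3 uninjured MRL libraries and 3.26% to 13.1% after injury. Pdgfb never exceeded 10.6%.

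**Figure D3:**
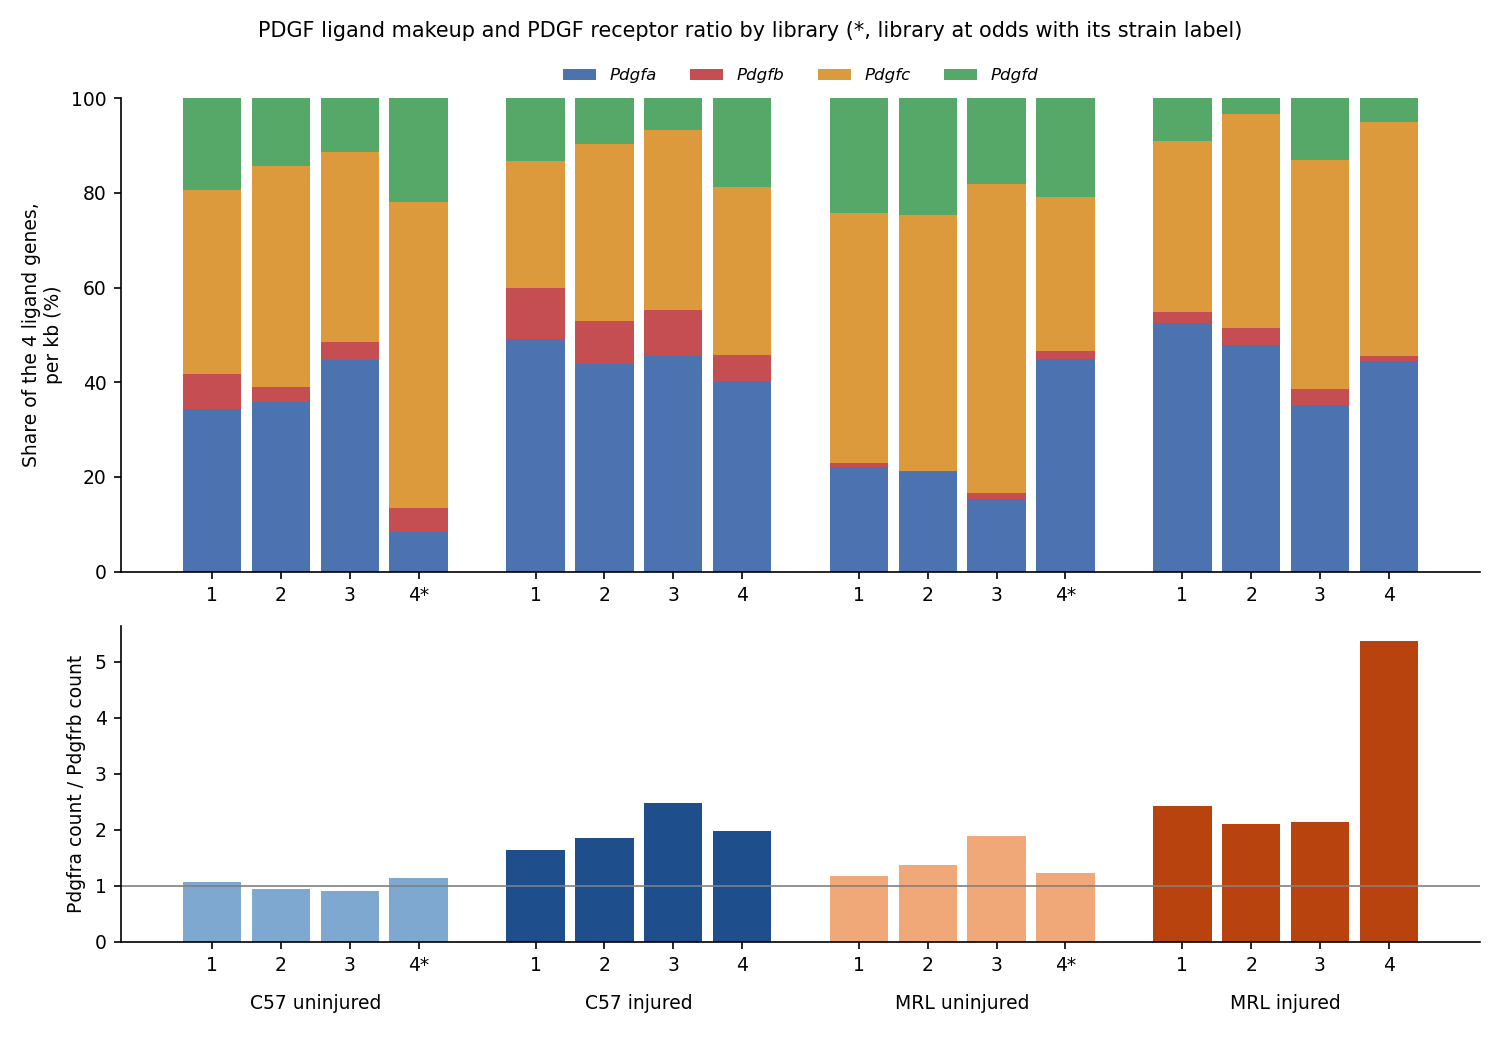
Share of each PDGF ligand gene in the sum of the 4, per kb (top, %), and ratio of Pdgfra to Pdgfrb counts (bottom) in each of 16 libraries, grouped by strain and injury; stars mark the 2 libraries that went against their strain label and the grey line a ratio of 1. The ratio lies between 0.906 and 1.89 in uninjured and between 1.63 and 5.37 in injured libraries.

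Of the FGF ligands among the 10 genes, Fgf7 had the larger estimate in C57 tendon and did not pass. It was at 12.8, 13.1, 6.87 and 10.5 CPM in uninjured and at 42.1, 25.9, 14.2 and 74.9 CPM in injured C57 tendon. The groups did not overlap, but the injured libraries spread widely, with BI-185 highest and BI-184 lowest. In the same order of libraries (BI-181 first, BI-185 last), Schwann cell markers summed to 821.4, 107.3, 90.8 and 581.5 CPM. Mural markers summed to 4209, 733.0, 424.0 and 1184 CPM. Both lists, and endothelial, adipocyte and skeletal muscle markers, were lowest in BI-184 and highest in BI-181. Tenocyte, fibroblast, macrophage, platelet and epidermal markers were lowest in BI-181, and proliferation and neutrophil markers in BI-185. The part of these cells in the spread was not tested. The log2 fold change was 1.82 ± 0.49, 3.53-fold higher, with an adjusted p of 0.1301 in edgeR (0.0926 without the library labelled replicate 4) and 0.00766 in DESeq2. In MRL tendon Fgf7 was at 11.4, 8.22, 33.8 and 16.2 CPM before injury and 8.15, 6.17, 17.7 and 20.2 CPM after it. These groups overlapped (log2 fold change -0.41 ± 0.50, adjusted p = 0.639; -0.43 ± 0.57 without its replicate 4).

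Fgf2 did not pass in either strain. Its log2 fold change was 0.20 ± 0.58 in C57 (adjusted p = 0.914) and -0.06 ± 0.36 in MRL tendon (adjusted p = 0.935), and both signs turned without the library labelled replicate 4 (-0.16 ± 0.29 and 0.33 ± 0.31). Fgf2 was at its group's lowest level, 3.64 CPM, in that C57 library and at its group's highest, 40.7 CPM, in that MRL library.

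Fgfr1, the FGF receptor gene of most mesenchymal cells, and Fgfr2, which epithelial cells also express, had negative estimates in both strains, none of which met the DEG criteria. Fgfr1 was at 319.2, 322.9 and 317.1 CPM in 3 uninjured C57 libraries and 107.0 CPM in the library labelled replicate 4, against 145.4, 204.1, 203.3 and 257.3 CPM after injury. Without that library the C57 groups did not overlap and the log2 fold change was -0.70 ± 0.18 (adjusted p = 0.0524), against -0.44 ± 0.34 (adjusted p = 0.579) with it. Uninjured MRL tendon had 386.1, 340.1, 341.5 and 346.8 CPM and injured MRL tendon 203.9, 232.7, 335.8 and 139.7 CPM, again with no overlap (log2 fold change -0.63 ± 0.23, adjusted p = 0.103; -0.62 ± 0.26, adjusted p = 0.180, without its replicate 4). Fgfr2 was at 24.9, 26.5 and 16.1 CPM in 3 uninjured C57 libraries and 94.9 CPM in the library labelled replicate 4, the one with 63420 CPM of epidermal markers. Its log2 fold change in C57 tendon was -1.43 ± 0.59 (adjusted p = 0.301) with that library and -0.55 ± 0.37 (adjusted p = 0.447) without it. The part of epidermal RNA in the first value was not tested. In MRL tendon the log2 fold change of Fgfr2 was -0.82 ± 0.38 (adjusted p = 0.180), or -0.94 ± 0.40 (adjusted p = 0.186) without its replicate 4, and it met the DEG criteria without BI-274 (-1.26, adjusted p = 0.0372).

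Over the 10 genes, edgeR called 0 in C57 tendon, where 1.07% of 14424 genes were DEG, and 3 members and 2204 of all genes had an unadjusted p under 0.05. DESeq2 called 2, Pdgfb and Fgf7, beside 5.49% of the genes it tested. Without the library labelled C57 uninjured replicate 4, edgeR again called 0 members while the background rose to 5.01% of 14983 genes, and at an adjusted p under 0.05 alone it called Pdgfrb, with a background of 6.26%. In MRL tendon it called 2 of 10, Pdgfa and Pdgfrb, both with all 8 libraries (background 7.41%) and without the library labelled MRL uninjured replicate 4 (6.11%). With all 8 libraries 5 members and 4046 of 14274 genes had an unadjusted p under 0.05, and DESeq2 called 4 members, with Pdgfb and Pdgfd (11%). The median log2 fold change of the 10 was 0.03 in C57 and -0.26 in MRL tendon, beside -0.05 and -0.03 over all genes tested. After the same injury, macrophage markers were higher in both strains (5 of 10 DEG, 0 lower, in each), at 4725 to 8589 CPM in injured and 788.2 to 1768 in uninjured C57 tendon, and at 3655 to 6583 and 997.9 to 1630 CPM in MRL tendon. All 10 proliferation markers rose in MRL tendon, from 8.09 to 17.2 CPM in sum to 261.6 to 943.6, and 0 of 10 met the criteria in C57 tendon with all 8 libraries. Their sum in C57 tendon was 10.5 to 16.4 CPM in 3 uninjured libraries, 298.5 CPM in the library labelled replicate 4 and 73.3 to 446.6 CPM after injury. Their part in the changes of the ligand and receptor genes was not tested.

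**Figure D4:**
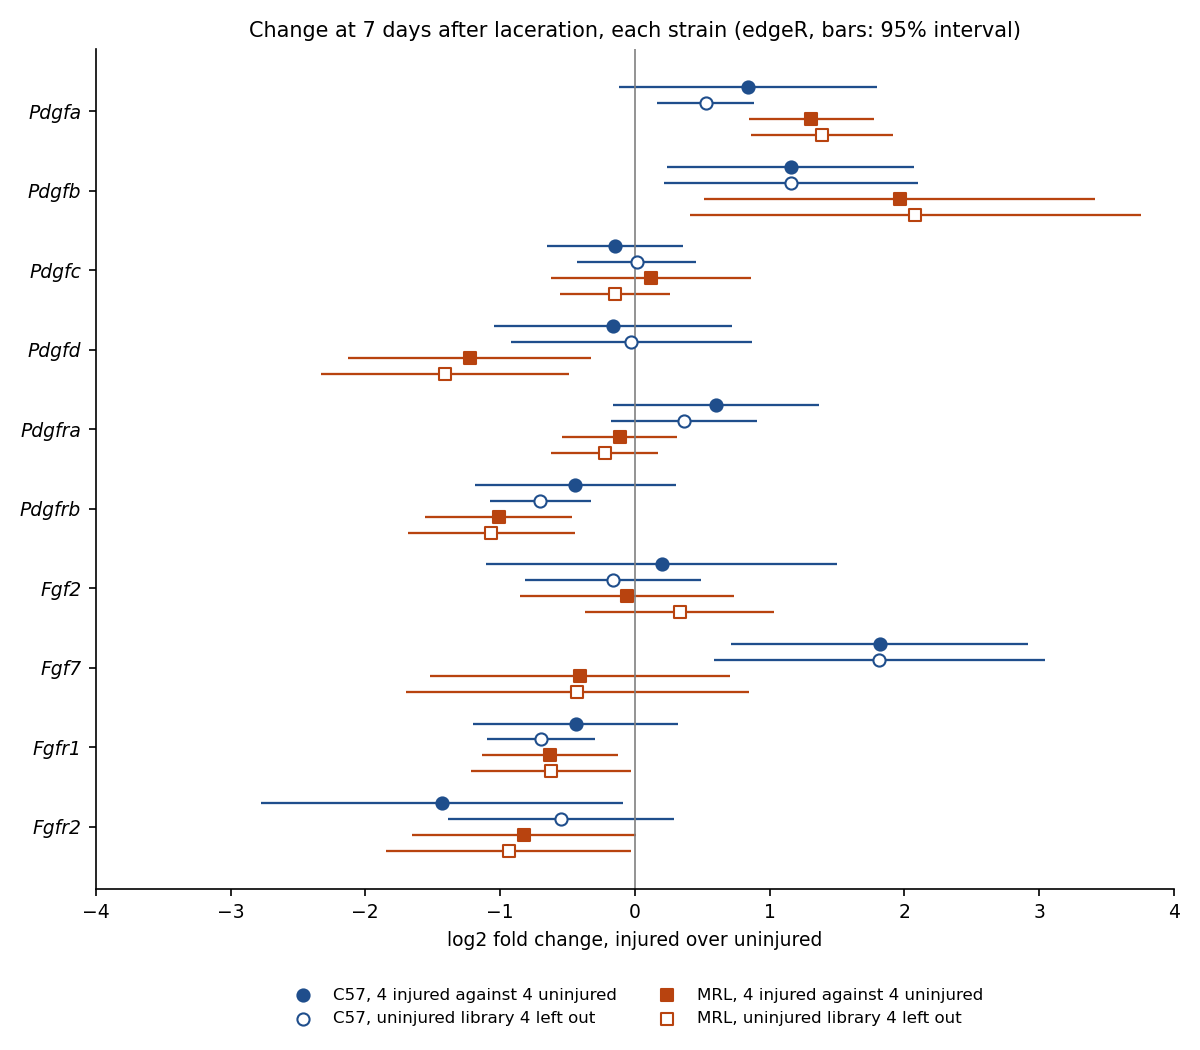
Log2 fold change (injured over uninjured) of each gene in C57 (circles) and MRL tendon (squares), with 95% intervals from edgeR; filled symbols use all 8 libraries of a strain, open symbols leave out the uninjured library labelled replicate 4. In MRL tendon Pdgfa (1.31) and Pdgfrb (-1.01) met the DEG criteria, and in C57 tendon Fgf7 (1.82) has the largest estimate and a wide interval.

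Whether the strains responded differently was tested by the interaction of strain and injury over the 16 libraries. None of the 10 genes passed, and edgeR called 0 of 15947 genes (0.0%), with 1939 at an unadjusted p under 0.05, while DESeq2 called 212 (1.23%), none of them a member. Fgf7 had the largest interaction of the 10, a log2 ratio of fold changes, MRL over C57, of -2.28 ± 0.75 (95% bounds -3.86 and -0.69, adjusted p = 0.339). Pdgfd had -1.12 ± 0.59 (adjusted p = 0.464) and Pdgfra -0.77 ± 0.41 (adjusted p = 0.472). Pdgfa, called in MRL and not in C57 tendon, had 0.42 ± 0.49 (95% bounds -0.61 and 1.45, adjusted p = 0.783), and Pdgfrb -0.62 ± 0.44 (95% bounds -1.55 and 0.32, adjusted p = 0.613), so no difference between the strains was shown for either. Pdgfb, Pdgfc, Fgf2, Fgfr1 and Fgfr2 lay between -0.31 (Fgf2) and 0.76 (Pdgfb), all with an adjusted p of 0.733 or more. Without both libraries labelled replicate 4, 0.0% of 16391 genes passed. Of all genes 1735 had an unadjusted p under 0.05, and 3 members did: Pdgfa at 0.81 ± 0.27 (adjusted p = 0.328), Pdgfd at -1.44 ± 0.60 (adjusted p = 0.418) and Fgf7 at -2.30 ± 0.84 (adjusted p = 0.351).

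Compared directly, injured MRL tendon had a higher level of Pdgfc than injured C57 tendon. Pdgfc was at 82.9, 133.4, 118.9 and 123.4 CPM in injured MRL tendon and at 39.9, 67.7, 60.9 and 60.1 CPM in injured C57 tendon. All 4 MRL libraries were above all 4 C57 libraries. The log2 difference, MRL over C57, was 0.97 ± 0.21, or 1.96-fold, with an adjusted p of 0.0311 in edgeR, where 3.87% of 14626 genes passed. The size held and the call did not when 1 library was left out: the difference stayed between 0.85 and 1.16, and the adjusted p was under 0.05 only without BI-270 (0.0226), and from 0.0525 to 0.0885 without any of the other 7, among them 0.0537 without BI-181, the library with muscle markers. DESeq2 called Pdgfc (adjusted p = 9.21e-04), with Pdgfa and Fgf7, and 11.2% of the genes it tested.

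The other injured differences did not pass in edgeR. Pdgfa was higher in all 4 injured MRL libraries than in any injured C57 library, by 0.60 ± 0.18 (adjusted p = 0.0934). Fgf7 was -1.63 ± 0.54 (adjusted p = 0.125), with overlap, and Pdgfb -1.10 ± 0.43 (adjusted p = 0.181), also with overlap. The remaining 6 members lay between -0.52 (Pdgfrb) and 0.14 (Fgfr1), all with an adjusted p of 0.291 or more. Marker sums also differed between these groups. Tenocyte markers summed to 19430 to 32580 CPM in injured MRL and 10190 to 17150 in injured C57 tendon, and fibroblast markers to 67050 to 108700 and 29220 to 63700, beside the higher Pdgfc, with 1 of 7 markers of each list higher at an adjusted p under 0.05 and 0 lower. Endothelial markers summed to 5.46 to 40.0 CPM in injured MRL and 143.3 to 295.1 in injured C57 tendon, with 4 of 10 lower at an adjusted p under 0.05 and 0 higher, beside the lower Pdgfb. Mural, macrophage and endothelial markers each had 4 of 10 lower in injured MRL tendon. The part of these cell types in the differences was not tested.

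In uninjured tendon the strain difference depended on the libraries labelled replicate 4. With all 8 libraries edgeR called 0 of 14055 genes (0.0%), with 1106 at an unadjusted p under 0.05, and DESeq2 called 123 (0.766%), none of them a member. Without the libraries labelled replicate 4, 5.5% of 14274 genes passed, and of the members Pdgfc and Pdgfd did. Pdgfc was at 124.8, 120.3 and 140.2 CPM in the 3 remaining uninjured MRL libraries and at 52.6, 63.9 and 48.8 CPM in the 3 remaining C57 libraries, a log2 difference of 1.21 ± 0.14, or 2.31-fold (adjusted p = 8.14e-04). The library labelled MRL had 38.3 and the one labelled C57 78.4 CPM, and with them the difference was 0.76 ± 0.36 (adjusted p = 0.638). Pdgfd was at 35.4, 34.3 and 24.2 CPM against 16.2, 12.1 and 8.64 CPM, a log2 difference of 1.33 ± 0.28, or 2.52-fold (adjusted p = 0.0233). With the libraries labelled replicate 4, at 15.2 and 16.5 CPM, it was 0.99 ± 0.34 (adjusted p = 0.621). In the same 6 libraries tenocyte markers summed to 24740 to 28530 CPM in MRL and 16950 to 18430 in C57 tendon. Fibroblast markers summed to 73820 to 80360 CPM in MRL and 50940 to 54360 in C57 tendon. The part of these cells in the differences of Pdgfc and Pdgfd was not tested. Uninjured Pdgfc and Pdgfd in MRL tendon were the levels from which the injury changes above were measured, so the injury and the strain values share those libraries.

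By the labels, Pdgfb was lower in every uninjured MRL library than in any uninjured C57 library, but did not pass (-1.86 ± 0.66, adjusted p = 0.621). Without the libraries labelled replicate 4 the groups again did not overlap (-1.94 ± 0.74, adjusted p = 0.192). The library labelled C57 uninjured replicate 4 carried MRL genes and had 4.98 CPM, and the one labelled MRL carried C57 genes and had 1.69 CPM. Placed by those genes, the 2 libraries would make the strains overlap. With the libraries labelled replicate 4 Pdgfra was 0.64 ± 0.31 (adjusted p = 0.645), and without them 0.53 ± 0.16 (adjusted p = 0.106). Pdgfa, Pdgfrb and Fgfr2 changed sign when they were left out, from 0.19 to -0.19, from 0.11 to -0.08 and from -0.54 to 0.49. Fgf2 went from -0.03 to -0.77 (adjusted p = 0.258). Fgf7 was 0.66 ± 0.45 (adjusted p = 0.727) with all 8 libraries and 0.69 ± 0.50 (adjusted p = 0.535) without those labelled replicate 4. Fgfr1 was 0.39 ± 0.30 (adjusted p = 0.758) and 0.14 ± 0.10 (adjusted p = 0.496). By the labels its groups did not overlap in either fit, with the libraries labelled replicate 4 at 107.0 (C57) and 346.8 CPM (MRL).

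**Figure D5:**
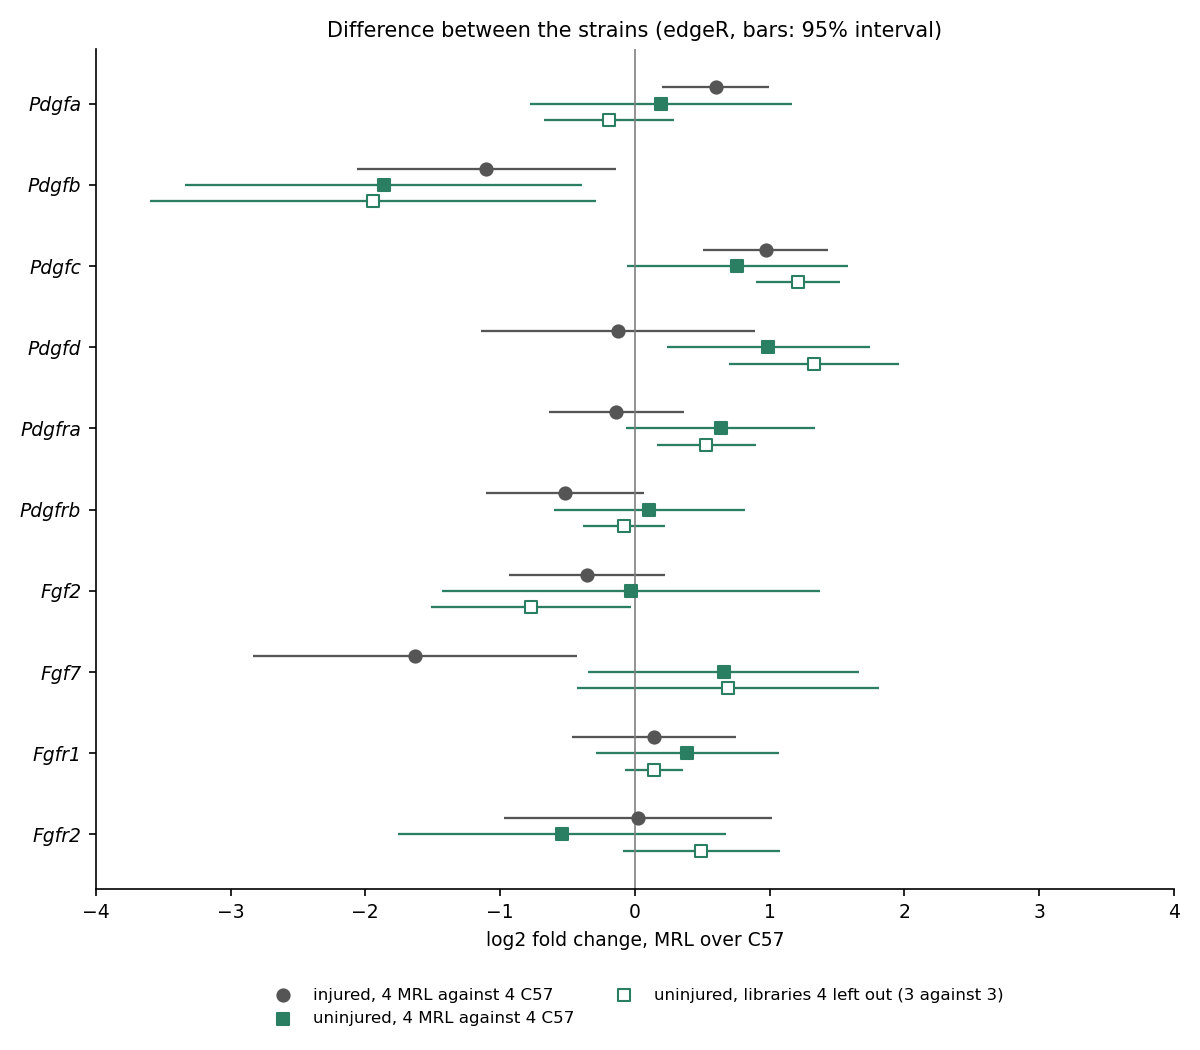
Log2 difference (MRL over C57) of each gene in injured tendon (circles, 4 against 4) and uninjured tendon (squares; filled, 4 against 4; open, without the 2 libraries labelled replicate 4), with 95% intervals from edgeR. Pdgfc lies to the right of 0 in all 3 fits, at 0.97, 0.76 and 1.21, and Pdgfd only in uninjured tendon.

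The promoter sequence of Pdgfc and Pdgfd is shown because these were the members that edgeR called between the strains, Pdgfd only in uninjured tendon without the libraries labelled replicate 4. It is the RefSeq sequence of GRCm38.p6, the reference of C57BL/6J, for the 250 bases before the annotated start on the plus strand, at chr3:81036166-81036415 for Pdgfc and chr9:6168236-6168485 for Pdgfd. The RefSeq start of Pdgfd lies upstream of the gene start given above, which is that of GENCODE. Capitals mark a match to the letters of a TATA box (TATAAA), searched at any distance from the start. No MRL sequence was used.
Pdgfc: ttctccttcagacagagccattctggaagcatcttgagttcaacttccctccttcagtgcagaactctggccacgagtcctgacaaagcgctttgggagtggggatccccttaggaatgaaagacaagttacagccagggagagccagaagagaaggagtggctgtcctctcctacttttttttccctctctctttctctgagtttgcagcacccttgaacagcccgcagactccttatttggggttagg
Pdgfd: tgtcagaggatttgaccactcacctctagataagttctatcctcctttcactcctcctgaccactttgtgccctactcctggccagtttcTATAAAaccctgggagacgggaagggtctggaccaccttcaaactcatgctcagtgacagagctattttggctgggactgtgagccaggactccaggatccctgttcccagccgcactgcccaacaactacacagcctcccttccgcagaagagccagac
On both strands, a GC box (GGGCGG), an EGR site (GCGNGGGCG), an AP-1 site (TGANTCA) and a TATA box (TATAAA) were searched in the 8 windows of this length that the table held for 7 of the members. The Pdgfc window held none of the 4, and the Pdgfd window 1 TATA box. Among the other members a GC box was in the windows of Pdgfa and Fgf2 and an EGR site in that of Fgf2, whose letters partly overlap a GC box, and 0 windows held an AP-1 site. Of 32851 promoter windows of the same length, 32.7% held a GC box, 4.7% an EGR site, 6.75% an AP-1 site and 12.4% a TATA box. These matches are letters in a window and say nothing of binding.

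The wider pathways were read from a list of 86 other genes, all of them in the table. In C57 tendon 66 passed the filter, and 0 of 7 ligands, 3 receptors, 23 signal transducers, 10 feedback inhibitors and 8 transcriptional targets were DEG. The 1 DEG (1.52% of the 66, beside the 1.07% of all genes) was among 15 extracellular modulators: Nrp1, which encodes neuropilin 1, a co-receptor of VEGF that also binds PDGF and FGF ligands. Nrp1 rose from 21.5 ± 4.97 to 77.5 ± 10.7 CPM (SD, n = 4), a log2 fold change of 1.80 ± 0.21 (adjusted p = 0.0121), and passed without the library labelled replicate 4 as well (adjusted p = 0.00415). It lost the call without uninjured replicate 2 or 3. In MRL tendon it was 0.84 ± 0.34 (adjusted p = 0.133), and in injured tendon it was lower in MRL (log2 difference -1.25 ± 0.17, adjusted p = 0.00479). Without the library labelled C57 uninjured replicate 4, 6 of 69 list genes were DEG in C57 tendon (8.7%, beside the 5.01% of all genes): Nrp1, Sdc3 and Ccnd1 higher and Fgf9, Fgf20 and Spry1 lower, of which Sdc3 and Fgf20 are named after their values were seen.

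In MRL tendon 69 of the 86 were tested, 2 rose and 6 fell, which is 11.6%, beside the 7.41% of all genes. Of 8 other ligands, Fgf9 (-1.58 ± 0.38, adjusted p = 0.0269) and Fgf18 (-1.32 ± 0.31, adjusted p = 0.0220), both FGFs of skeletal development, fell, and 0 rose. Fgf9 was at 97.8 ± 13.2 CPM before and 32.5 ± 19.5 CPM after injury. In C57 tendon Fgf9 was -2.10 ± 0.49 (adjusted p = 0.0842) and Fgf18 -0.80 ± 0.30 (adjusted p = 0.253). Without the library labelled C57 uninjured replicate 4 they were -2.34 ± 0.44 (adjusted p = 0.0185) and -0.99 ± 0.24 (adjusted p = 0.0442). Of 4 other receptors and co-receptors tested, Fgfr3 fell (-2.16 ± 0.59, adjusted p = 0.0422), from 34.3 ± 24.6 to 7.66 ± 5.84 CPM. The other 3 did not pass: Pdgfrl, a PDGF receptor-like secreted protein, at 0.57 ± 0.27, the decoy receptor gene Fgfrl1 at -0.19 ± 0.26, and Fgfr4 at -1.17 ± 1.29. In C57 tendon Fgfr3 was -2.06 ± 0.74 (adjusted p = 0.243), and -0.73 ± 0.39 (adjusted p = 0.321) without the library labelled replicate 4, which had 78.6 CPM of it, beside Fgfrl1 at 0.43 ± 0.76 and Pdgfrl at -0.44 ± 0.27. The klotho genes Kl and Klb, co-receptors of endocrine FGFs, had at most 20 counts in any library and were not tested in MRL tendon. Of 16 extracellular modulators 0 passed.

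Downstream of the receptors, Pik3r1, the regulatory subunit of PI3K, was the only 1 of 23 signal transducers called in MRL tendon (-1.07 ± 0.16, adjusted p = 0.00371). Of 10 feedback inhibitors tested, Spry1, which damps receptor tyrosine kinase signalling, was the only DEG, and it fell from 205.3 ± 20.7 to 66.0 ± 42.2 CPM (-1.63 ± 0.42, adjusted p = 0.0338). In C57 tendon Spry1 was -1.35 ± 0.28 (adjusted p = 0.0597), and -1.50 ± 0.25 (adjusted p = 0.0109) without the library labelled replicate 4. Of 8 transcriptional targets, Fosl1, an AP-1 subunit, and Ccnd1, or cyclin D1, rose and Etv1, an ETS factor induced by FGF signalling, fell. Fosl1 went from 2.57 ± 1.28 to 29.9 ± 13.7 CPM (3.55 ± 0.45, adjusted p = 0.00186) and Ccnd1 from 6.53 ± 4.04 to 77.7 ± 31.5 CPM (3.57 ± 0.55, adjusted p = 0.00417). Etv1 went from 64.3 ± 9.96 to 26.4 ± 10.9 CPM (-1.28 ± 0.27, adjusted p = 0.0156). In C57 tendon Fosl1 was 1.86 ± 1.03 (adjusted p = 0.426) and Ccnd1 0.98 ± 0.74 (adjusted p = 0.573). Etv1 was -0.51 ± 0.32 (adjusted p = 0.476) and Pik3r1 -0.64 ± 0.24 (adjusted p = 0.259) there. Without the library labelled C57 uninjured replicate 4, Fosl1 was 2.00 ± 1.08 (adjusted p = 0.332) and Ccnd1 2.20 ± 0.50 (adjusted p = 0.0346). Etv1 was then -0.75 ± 0.20 (adjusted p = 0.0583) and Pik3r1 -0.78 ± 0.20 (adjusted p = 0.0586). Without the library labelled MRL uninjured replicate 4, 7 list genes were called: Fgf9 (adjusted p = 0.0574) and Spry1 (adjusted p = 0.0821) lost the call, and Myc, named after its values were seen, gained it (1.04 ± 0.20, adjusted p = 0.0166). Fgf18 (adjusted p = 0.04997), Fgfr3, Pik3r1, Fosl1, Ccnd1 and Etv1 kept it. Over the 8 fits that left out 1 library, 4 to 9 list genes were called.

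Between the injured strains 4 of 67 list genes passed, or 5.97% beside 3.87% of all genes. Pdgfrl was higher in MRL, at 378.7 ± 88.9 against 133.8 ± 34.7 CPM (1.47 ± 0.25, adjusted p = 0.0126), and so was Ccnd1, at 77.7 ± 31.5 against 23.5 ± 11.96 CPM (1.70 ± 0.40, adjusted p = 0.0480). Nrp1 was lower, as was Fgfbp3, an FGF-binding protein gene outside the rule for named genes (-2.31 ± 0.53, adjusted p = 0.0425). The interaction of strain and injury called 0 of 73 list genes. Between the uninjured strains 0 of 69 passed with all libraries. Without the libraries labelled replicate 4, 3 were higher and 5 lower in MRL (11.6%, beside 5.5% of all genes). Fgfr3 (1.85 ± 0.40, adjusted p = 0.0251) and Etv1 (0.95 ± 0.17, adjusted p = 0.0105), which fell after injury in MRL tendon, were among the higher ones.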

How the data were processed

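RNA-seq was performed on 16 flexor tendons, 4 per group by the deposited labels, with single-end reads of 100 nt. Per the submitters' processing notes, reads were trimmed with Trimmomatic 0.36 and mapped with STAR 2.5.2b to GRCm38.p5, and Subread 1.5.0p3 and featureCounts are named. The authors deposited raw counts per gene symbol, pooled over no samples. Gene annotation, strand setting and sequencing batch are not given in the sources used here. The labels name a TruSeq kit and the methods a pre-amplified low-input kit, and neither names molecular identifiers, so counting error understates technical error.

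From the counts, CPM on TMM-adjusted totals, and log2 fold changes with edgeR 4.0.16 (R 4.3.3; filterByExpr, robust quasi-likelihood test, Benjamini-Hochberg over all genes tested) were computed in a fit of the groups compared. The interaction used all 16 libraries. The SE is the fold change over the root of F. A count of 3, the floor, was 0.126 to 0.241 CPM. Alternatives were DESeq2 1.42.0, other scaling factors, no filter, all 16 libraries in 1 fit, each library left out and, for uninjured tendon, a replicate block. The tests were first run on simulated data. Exons are those of GENCODE M21 on GRCm38. The 10 members, the pathway and marker lists and the rule for named genes (all members in every comparison, pathway genes called in either injury response, and the other receptors) were chosen with earlier results of these data known. Replicates are single animals. Pdgfrb promoter sequence is not shown.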

Additional observations from a re-analysis of the deposited data

Results flagged for a closer look

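In 4 of 40 groups of 4 values, 1 library lay far from the other 3, its gap to the nearest exceeding Dixon's 95% critical share of the group's range. Chance gives about 1 such group in 20. Fgfr1 was at 107.0 CPM and Fgfr2 at 94.9 CPM in the library labelled C57 uninjured replicate 4, which went against its strain label and held epidermal markers. Fgfr1 was at 386.1 CPM in MRL uninjured replicate 1, and Pdgfb at 7.59 CPM in the injured C57 library BI-185. These groups were used as they were, and the report gives the values without the first library.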

How the results depend on the processing

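The number of the 10 genes called by the DEG criteria in C57 tendon was 0 under every alternative run but DESeq2. DESeq2 called 2, beside 5.49% of all genes it tested, and the leave-one-out fits called 0. In MRL tendon the number was 2, beside 7.41% of all genes tested, and 4 under DESeq2, beside 11%. It was 2 with all 16 libraries in 1 fit (Pdgfa and Pdgfb, not Pdgfrb) and 1 to 4 when 1 library was left out. For the fit of all 16 libraries the share over all genes is not given here. Between the strains and in the interaction a call is an adjusted p under 0.05 alone. Between injured strains the number was 1, beside 3.87% of all genes tested, and 3 under DESeq2, beside 11.2%. It was 0 to 1 when 1 library was left out. In uninjured tendon it was 0, also with the replicate block (0) and when any 1 library was left out, and 2 with both libraries labelled replicate 4 left out. The interaction called 0 in every fit run. Of the other pathway genes, 1 was called in C57 tendon, 6 under DESeq2, 2 with all 16 libraries in 1 fit and 0 to 6 when 1 library was left out, and 8 in MRL tendon, 11 under DESeq2, 6 with all 16 libraries in 1 fit, 5 without a filter and 4 to 9 when 1 library was left out. The uninjured numbers do not pair the samples: deviations of same-numbered libraries correlated at -0.30, 0.03, -0.12 and -0.23. Scaling alternatives moved the median of all genes by at most 0.05 (log2), and no sign of a member turned with them.

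The signs of some estimates turned, none of them called, and the cause was not tested. When 1 library was left out, log2 values ranged from -0.24 to 0.02 (Pdgfc), -0.44 to 0.08 (Pdgfd) and -0.16 to 0.57 (Fgf2) in C57 injury, and from -0.15 to 0.27 (Pdgfc), -0.22 to 0.07 (Pdgfra), -0.28 to 0.33 (Fgf2) and -0.70 to 0.12 (Fgf7) in MRL injury. They ranged from -0.07 to 0.38 (Pdgfc), -0.68 to 0.07 (Fgf2), -0.49 to 0.02 (Fgfr1) and -0.32 to 0.82 (Fgfr2) in the interaction, from -0.48 to 0.18 (Pdgfd), -0.30 to 0.06 (Pdgfra), -0.06 to 0.37 (Fgfr1) and -0.37 to 0.28 (Fgfr2) between injured strains, and from -0.12 to 0.38 (Pdgfa), -0.15 to 0.30 (Pdgfrb), -0.41 to 0.35 (Fgf2) and -0.80 to 0.36 (Fgfr2) between uninjured strains. With both libraries labelled replicate 4 left out, the interaction became -0.22 (Pdgfc), 0.43 (Fgf2), 0.01 (Fgfr1) and -0.45 (Fgfr2), and the uninjured strain difference -0.19 (Pdgfa), -0.08 (Pdgfrb) and 0.49 (Fgfr2). With the replicate block, Fgf2 was 0.04 between uninjured strains. Pdgfb, at 5 to 218 counts per library, had the lowest depth of the 10 genes.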
